A study of Mus musculus with 57 samples.

Results

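The extracellular matrix and matrix remodelling genes described here were chosen by name. The list holds 44 genes for collagens, basement membrane proteins, matrix glycoproteins, crosslinking enzymes, proteases, protease inhibitors, matrix receptors and the bone transcription factor Runx2. Of these, 41 were in the table of all cells, among 12887 genes and label genes. Col1a1, Col1a2 and Col5a2 were not in it, so the collagen I pair and the second chain of collagen V were not analysed here. Each gene was described by state and by the level of the tumour label.

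Single RM1 cells, a mouse prostate cancer line with reporter genes for a cerulean fluorescent protein (eCFP) and for luciferase (Luc2), were sorted from the bone of C57BL/6 mice after injection of dye-labelled cells into the heart. The dye, PKH26, is diluted at each division. Cells that kept it were sorted as dormant (28 cells, 6 mice) and cells without it as proliferating (29 cells, 6 mice), on days 13 to 26 after injection. As the submitters describe them, all groups share the line, both reporter genes, the dye labelling and the host strain. Some dormant cells held little of either reporter transcript and are set apart below. No group is an uninjected control or a culture. Mice 369 (6 dormant and 13 proliferating cells, day 17), 452 (3 and 6, day 16), 1185 (11 and 4, day 14) and 360 (2 and 3, day 17) gave both states. Mice 1184 (5 cells, day 15) and 244 (1 cell, day 26) gave only dormant cells, and mice 268 (2 cells, day 18) and 288 (1 cell, day 13) only proliferating cells.

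A tumour cell in bone sits in a matrix of collagens, basement membrane around vessels, and glycoproteins such as fibronectin and osteopontin that bind integrins and CD44. Matrix metalloproteinases and the urokinase system cut this matrix, the TIMP proteins inhibit the metalloproteinases, and lysyl oxidases and hydroxylases stiffen or mature collagen. Several of these genes, among them Spp1, Cd44, Plaur, Thbs1 and Mmp9, are also used by macrophages and granulocytes of the marrow.

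The dormant sort was not uniform for the tumour label. In 6 dormant cells eCFP was under 100 normalised reads, a cutoff taken from earlier results of these data, and these are called low-label cells (1 from mouse 244, 2 from 360, 2 from 369 and 1 from 1184). They held Krt8, an epithelial keratin gene, at 0 to 9.40 normalised reads and Lyz2, a lysozyme gene of myeloid cells, at 52145 or more. The other 22 dormant cells (4 mice) and the 29 proliferating cells all had eCFP above the cutoff and are called labelled. Their summed Krt8 and Krt18 ranged from 1355 to 22461 and from 391 to 27226. Summed over 12 monocyte and macrophage genes, the low-label cells ranged from 100357 to 324617, the labelled dormant cells from 0 to 135959 (median 190) and the proliferating cells from 0 to 2025. Over the 8 neutrophil genes in the table, the sums ranged from 0 to 781890 (median 17.6) in low-label cells. They reached 8358 in labelled dormant and 29570 in proliferating cells, both with a median of 0. The low-label cells were thus not alike in neutrophil transcripts. Of 18 genes shared by leukocytes, 5 or more were above 0 in some cells, called leukocyte-rich here. They were 6 of the 6 low-label cells, 9 of the 22 labelled dormant cells and 9 of the 29 proliferating cells. The name stands for this count only. Arhgdib, 1 of the 18, was above 0 in every labelled cell, and Cd53 in 17 labelled dormant and 14 proliferating cells. Sums over the 18 genes overlapped among labelled cells, with 899 to 13166 in leukocyte-rich cells and 764 to 10059 in the others. A labelled dormant cell of mouse 1184, with Lyz2 at 95205, gave the highest monocyte sum of its set. Another labelled dormant cell of that mouse held Lyz2 at 48048, with 12 of the 18 leukocyte genes above 0. Labelled dormant cells 26 and 29 of mouse 369 held Lyz2 at 2940 and 4262. The osteoblast and endothelial lists had only 2 genes each in the table, with median sums of 0 in all 3 sets of cells. The stroma and fibroblast list had 4 of its 8 genes in the table. Its summed level had a median of 547 in labelled dormant cells (highest 8752), 359 in proliferating cells (highest 2570) and 0 in low-label cells (highest 20.7). Kitl, the stem cell factor gene, had medians of 368 and 226 in the labelled sets and was above 0 in 20 of 22 and 25 of 29 cells. Dcn, decorin, reached 7959 and 1882. Pdgfra was above 0 in 5 and 9 labelled cells, reaching 123 and 1522, and Pdgfrb, a receptor of pericytes, in 1 and 3. The part of stromal transcripts in the members' levels was not tested. Reads recovered per cell ranged from 945351 to 5306777. A mouse mean cannot tell fewer cells with a transcript from less of it per cell.

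The plot of every member in every cell gives the overview. In the low-label cells most collagen, basement membrane, Sparc and Timp1 values lay at or near 0, while Timp2, Plaur, Cd44, Adam10 and Adam17 were present. In reads, 20 of the 41 members had at most 10 reads in each of the 6 low-label cells, and 8 of these (Col4a2, Col5a1, Col6a1, Col12a1, Timp3, Plod2, Sdc1 and Bgn) had none. Over all genes of the table the shares were 31.3% with at most 10 reads in each and 19.1% with none. A count of 0 of 6 cells allows a share of up to 50.0% (3 counts of the total, counting error only). This limits cells with a read and not cells that express the gene, and it takes the cells as independent although some share a mouse. A further 10 members, Spp1, Timp2, Mmp14, Plaur, Thbs1, Tgfbi, Cd44, Sdc4, Adam10 and Adam17, had over 10 reads in at least 3 of the low-label cells. The share of all genes at that level was not counted, so this number says nothing particular about the members. These sets were cut by eCFP, so they are described and not tested.

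**Figure D1:**
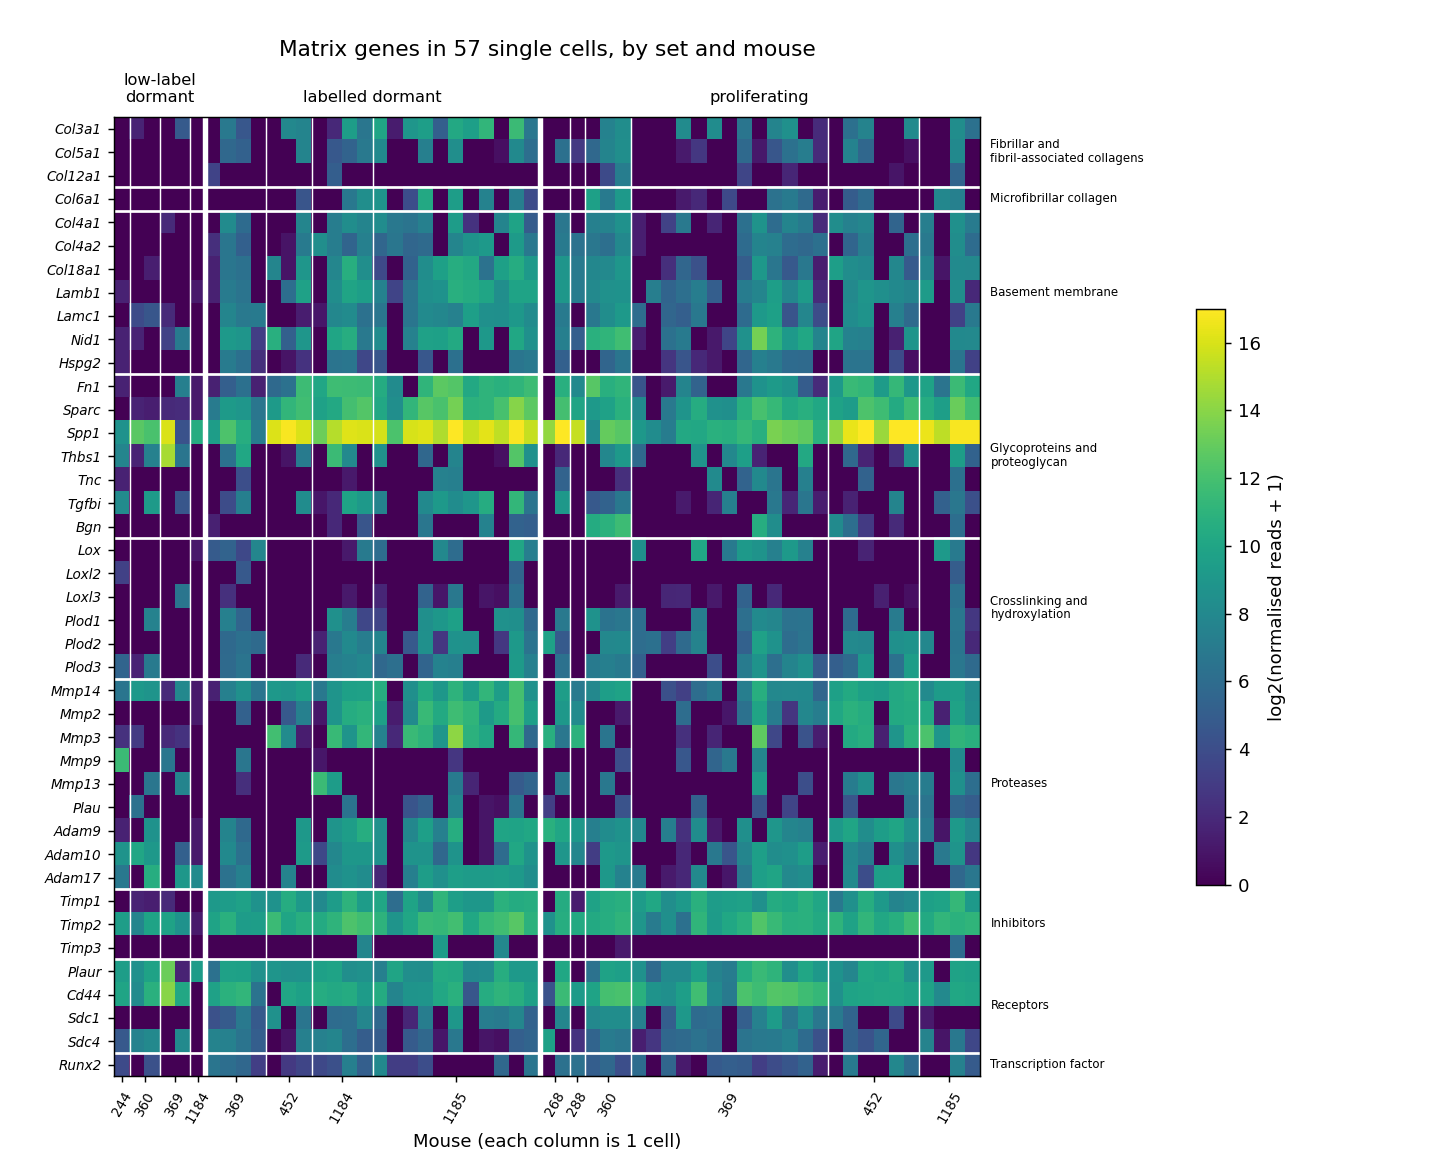
Level of the 41 members (rows, grouped by role) in 57 cells (columns, grouped by set and mouse, ordered by eCFP within a mouse), as log2(normalised reads + 1) by colour. Spp1 is the brightest row in labelled cells of mice 452, 1184, 1185, 268 and 288 and dimmer in mice 369 and 360, and the 6 low-label cells at the left are dark for most collagen and basement membrane rows.

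Collagens were detected in part of the labelled cells. Col3a1, a fibrillar collagen chain, was above 0 in 17 of 22 labelled dormant cells (0 to 3102 normalised reads, median 112) and in 13 of 29 proliferating cells (0 to 369, median 0). The 11 labelled dormant cells of mouse 1185 set much of that median: their own median was 731, against 11.8 in mouse 369, 204 in mouse 452 and 51.5 in mouse 1184. Col5a1, which regulates fibril diameter, was above 0 in 12 and 17 cells, with medians of 12.9 and 1.39. Col12a1, a fibril-associated collagen, was above 0 in 2 and 6 cells and Col6a1, a microfibrillar chain, in 10 and 14, all with medians of 0.

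Basement membrane genes were detected in most labelled cells of both states. Lamb1, the laminin beta 1 chain, was above 0 in 19 of 22 labelled dormant cells (median 328) and 24 of 29 proliferating cells (median 200). Its partner Lamc1 was above 0 in 18 and 20 cells, with medians of 149 and 58.2. Nid1, the nidogen that links laminin to collagen IV, was above 0 in 17 and 23 cells, with medians of 425 and 167. Col4a1 and Col4a2, the paired collagen IV chains, had medians of 103 and 79.1 in labelled dormant and 77.4 and 59.2 in proliferating cells. Col18a1, the source of endostatin, had medians of 221 and 103. Hspg2, the perlecan core protein, was low, with medians of 4.25 and 5.21 normalised reads. The ranges of all of these overlapped widely, with cells at 0 in each state. These medians pool cells of several mice. In the 3 mice with labelled cells of both states, the Lamb1 and Col4a1 means were higher in labelled dormant cells in 1 mouse and lower in 2. The Lamc1, Nid1, Col4a2, Col18a1 and Hspg2 means were higher in 2 and lower in 1. For Lamb1 the differences were −1.97, −1.55 and 3.64 in mice 369, 452 and 1185. In the low-label cells the highest value was 3.13 for Col4a1, 1.72 for Col18a1 and 2.15 for both Lamb1 and Hspg2, which are single reads, and 22.4 for Lamc1 and 130 for Nid1.

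Col4a1 (ENSMUSG00000031502) and Col4a2 (ENSMUSG00000031503) lie head to head in GRCm38, at chr8:11198423-11312826 on the minus strand and chr8:11312805-11449287 on the plus strand, and their first exons share 22 bases. Over all members, 17 share exon bases with another annotated gene, and for 8 the other gene is also in the table. Counting by strand is not given in the sources used here, so reads in such stretches cannot be assigned with certainty.

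Spp1 encodes osteopontin, an acidic glycoprotein of bone that binds integrins and CD44. Per kilobase of exon it had the highest median of the members in both labelled sets. In labelled dormant cells it was at 33680 normalised reads per kilobase, ahead of Timp1 (758), Sparc (585), Timp2 (517) and Mmp3 (203). In proliferating cells it was at 5714, ahead of Timp1 (904), Timp2 (396), Sparc (323) and Plaur (207). The order below Timp1 differed between the sets, and these medians over cells mix mice. All 57 cells were above 0. Labelled dormant cells ranged from 142 to 134009 normalised reads (median 55505) and proliferating cells from 137 to 290116 (median 9417), so the ranges overlapped almost completely.

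Spp1 levels differed more between mice than between states. In labelled dormant cells the median was 1133 in mouse 369 (4 cells), against 71662 in mouse 452 (3 cells), 50687 in mouse 1184 (4 cells) and 62662 in mouse 1185 (11 cells). In proliferating cells it was 1668 in mouse 369 (13 cells) and 6048 in mouse 360 (3 cells). The other mice had medians of 115968 (mouse 452, 6 cells), 104583 (mouse 1185, 4 cells), 84337 (mouse 268, 2 cells) and 46033 (mouse 288, 1 cell). The highest proliferating cell of mouse 369, at 12241, lay below the lowest of mouse 452, at 18352, and the highest labelled dormant cell of mouse 369, at 4906, lay below all cells of mouse 452. Differences between mice made up 75.2% of the variance of log2(value + 1) over labelled dormant cells and 73.7% over proliferating cells, against medians of 17.8% and 21.1% over the 41 members. The mice were not compared by a test, since the labels name no groups of them. Mice 369 and 360 were both taken on day 17. The sequencing batch of each cell is not used here, and batch and mouse were not separated.

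Within the mouse, the Spp1 difference between states was smaller than its error. In the 4 mice with both states the dormant mean was 13.58 ± 2.95 (SD, n = 4) and the proliferating mean 13.64 ± 3.10 (SD, n = 4) on the log2(value + 1) scale. The difference was −0.06 (SE 0.37) with the mouse as a block, by limma with an adjusted p of 0.957 over all genes. This scale is the mean over cells of log2(value + 1), and cells at 0 enter it. Over all mice the Spp1 difference was −1.43 (SE 1.62, limma adjusted p 0.832, 6 mice each), and −0.06 (SE 1.74) when only labelled dormant cells (4 mice) were used. These 2 fits had no block for the mouse, so their errors include the spread between mice. The value within mice includes low-label cells, which are all the dormant cells of mouse 360. Labelled dormant minus proliferating means were −0.80, 0.08 and −0.76 in mice 369, 452 and 1185. The 6 low-label cells held Spp1 at 412, 6441, 4542, 66145, 18.4 and 1471 normalised reads, so it was present in all of them, and the highest was as high as in labelled cells.

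**Figure D2:**
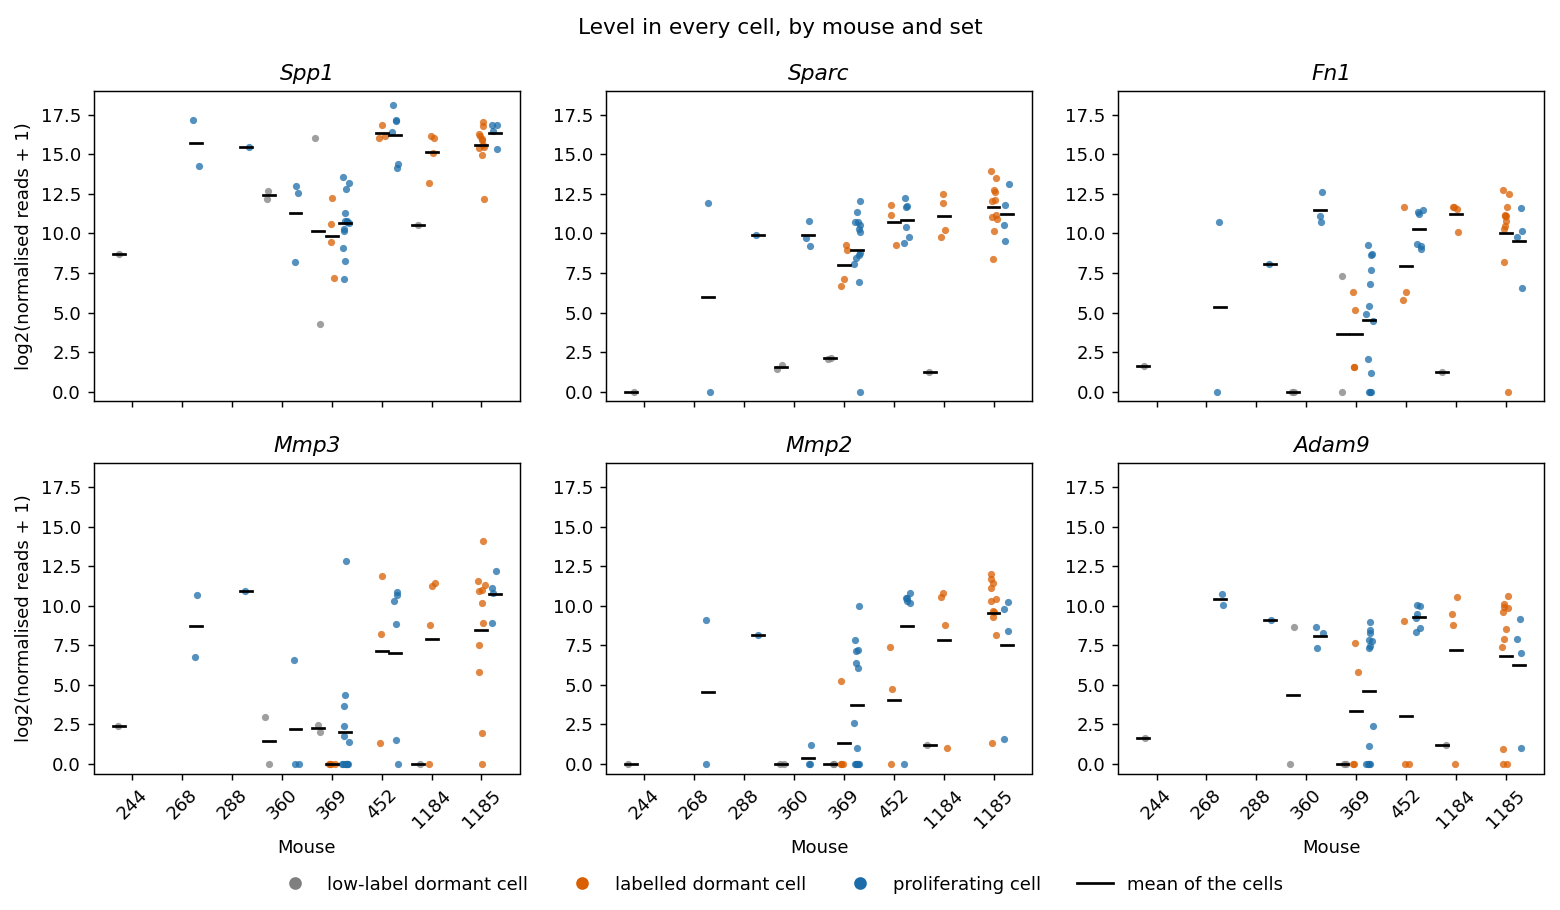
Level of 6 members in every cell (points, log2(normalised reads + 1)) by mouse, coloured by set, with a black line at the mean of the cells of that mouse and set. Spp1 sits lower in mice 369 and 360 than in the other mice with labelled cells for both states, Mmp3 is at 0 in the 4 labelled dormant cells of mouse 369, and Sparc separates low-label from nearly all labelled cells.

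Mmp2 and Mmp3 showed a similar split by mouse. Mmp3, stromelysin 1, was at 0 in all 4 labelled dormant cells of mouse 369, where the other mice had medians of 291, 1431 and 1177 (452, 1184 and 1185). Among proliferating cells its median was 0 in mice 369 (6 of 13 cells above 0, the highest at 7156) and 360 (1 of 3 above 0). It was 883, 1934, 871 and 1972 in mice 268, 288, 452 and 1185. Mmp2, gelatinase A, had a median of 0 in labelled dormant cells of mouse 369 and 25.8, 973 and 1263 in mice 452, 1184 and 1185. In proliferating cells its medians were 0 in mouse 360, 5.09 in mouse 369, 268 in mouse 268, 287 in mouse 288, 608 in mouse 1185 and 1350 in mouse 452. Over the 51 labelled cells the Spearman correlation with Spp1 was 0.717 for Mmp2 and 0.706 for Mmp3. Taken within mouse and state, these were 0.558 and 0.493. Cells of a mouse share their source, so these values are a description.

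Sequence upstream of the start was available from RefSeq (GRCm38.p6) for 29 of the 41 members, Spp1 and Mmp3 among them. It was searched over the 150 bases before the start, on both strands, for the motif TGTGGT of RUNX factors, the family of Runx2, and TGANTCA of AP-1, 2 motifs long studied at bone and protease genes. TGTGGT was present in 8.40% of all 32851 windows and in 5 members, and TGANTCA in 4.24% of windows and in 4 members. The percentages count windows, while a member was counted if any of its windows held the motif. The member counts therefore cannot be set against the percentages. The windows of Spp1 (chr5:104434961-104435110), Mmp14 (chr14:54431448-54431597), Mmp13 (chr9:7272364-7272513), Mmp3 (chr9:7445672-7445821) and Plaur (chr7:24462333-24462482), all on the plus strand, are shown because these members carry a motif and include the most abundant member, the proteases and the urokinase receptor. Capitals mark the motifs, where ACCACA is TGTGGT on the other strand.
Spp1: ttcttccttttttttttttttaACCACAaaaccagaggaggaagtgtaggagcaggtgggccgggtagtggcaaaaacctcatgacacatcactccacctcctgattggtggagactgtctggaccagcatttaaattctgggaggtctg
Mmp14: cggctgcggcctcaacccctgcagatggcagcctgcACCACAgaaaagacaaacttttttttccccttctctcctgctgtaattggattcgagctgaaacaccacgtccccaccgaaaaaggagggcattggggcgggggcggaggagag
Mmp13: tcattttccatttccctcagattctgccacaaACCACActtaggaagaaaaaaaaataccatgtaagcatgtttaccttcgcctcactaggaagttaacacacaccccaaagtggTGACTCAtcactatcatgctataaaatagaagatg
Mmp3: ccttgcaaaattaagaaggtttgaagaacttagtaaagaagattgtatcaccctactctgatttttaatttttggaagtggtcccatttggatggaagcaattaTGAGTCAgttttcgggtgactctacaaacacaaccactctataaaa
Plaur: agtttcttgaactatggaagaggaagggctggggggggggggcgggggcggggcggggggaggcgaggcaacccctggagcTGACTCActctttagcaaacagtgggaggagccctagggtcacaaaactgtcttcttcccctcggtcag
The RUNX motif began 128 bases before the start in Spp1, 114 in Mmp14 and 118 in Mmp13, and the AP-1 motif 46 bases before it in Mmp3, 35 in Mmp13 and 69 in Plaur. Mmp13 held both. A match says only that these letters are there. The other members with a match were Runx2 and Col18a1 for the RUNX motif and Col6a1 for AP-1. Runx2 itself was low, with a median of 11.2 normalised reads in labelled dormant cells (16 of 22 above 0) and 27.5 in proliferating cells (21 of 29).

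Among the other glycoproteins, Sparc, osteonectin, had the highest correlation with eCFP of the members. All 22 labelled dormant cells held it at 103 to 15753 normalised reads (median 2215), and 27 of 29 proliferating cells were above 0, reaching 8962 (median 1225). These medians pool mice. Within mice the labelled dormant mean of Sparc differed from the proliferating mean by −0.96, −0.12 and 0.45 in mice 369, 452 and 1185. The 6 low-label cells held 0, 2.28, 1.72, 3.13, 3.46 and 1.33 normalised reads, which is at most 3 reads. The Spearman correlation over the 51 labelled cells was 0.614, against a median of 0.286 over the 37 members that were above 0 often enough (in 25% of those cells or more) for one to be computed. Reads per cell also varied with Sparc, with a correlation of 0.429.

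Fn1, fibronectin, ranged from 0 to 6862 normalised reads in labelled dormant cells (median 1599) and from 0 to 6158 in proliferating cells (median 415). It was low in mouse 369 in both states, with medians of 18.2 and 29.7, and high in the proliferating cells of mouse 360, with a median of 2237. Within mice the labelled dormant mean of Fn1 differed from the proliferating mean by −0.92, −2.34 and 0.48 in mice 369, 452 and 1185. The 6 low-label cells held it at 2.15, 160 and 1.33 in 3 cells and 0 in the others. Tgfbi, a matrix protein induced by TGF-beta, had medians of 129 and 1.61 in labelled dormant and proliferating cells. Thbs1, thrombospondin 1, was above 0 in 12 of 22 and 15 of 29 labelled cells with medians of 0.744 and 2.17, but a single low-label cell of mouse 369 with eCFP at 0 held 28689. That cell also held the highest Plaur (9165), the highest Cd44 (16009) and the highest low-label Spp1. Bgn, the proteoglycan biglycan, had a median of 0 in both labelled sets, with all 3 proliferating cells of mouse 360 at 1423 or above. Tnc, tenascin C, was above 0 in 4 of 22 and 9 of 29 labelled cells.

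Crosslinking and hydroxylating enzymes were low. Lox, lysyl oxidase, was above 0 in 11 labelled dormant and 11 proliferating cells, and its relative Loxl3 in 9 and 9. Loxl2 was above 0 in 2 and 1, and it was not tested. The lysyl hydroxylases Plod1, Plod2 and Plod3 had medians of 10.7, 56.5 and 47.9 in labelled dormant and 5.70, 67.5 and 56.5 in proliferating cells. Plod2, the hydroxylase of collagen telopeptides, was at 0 in all 6 low-label cells.

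Of the proteases, Mmp14, the membrane-bound metalloproteinase that activates Mmp2, was above 0 in 21 of 22 labelled dormant cells (median 517) and 25 of 29 proliferating cells (median 264), and in 6 of 6 low-label cells (1.33 to 537). Mmp13, a collagenase, was above 0 in 7 and 11 labelled cells. Plau, urokinase, was above 0 in 7 and 10, reaching 222 and 94.7. Mmp9, gelatinase B of neutrophils and macrophages, was above 0 in 3 of 22 labelled dormant cells (at most 102) and 6 of 29 proliferating cells (at most 285). Its highest value in any cell was 3067, in the low-label cell of mouse 244. Adam10 and Adam17, sheddases at the cell surface, were above 0 in 16 and 16 of 22 labelled dormant cells, in 21 and 18 of 29 proliferating cells and in 5 and 4 of 6 low-label cells.

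Of the inhibitors, Timp1 was near 0 in the low-label cells and Timp2 was not. Timp1 ranged from 65.1 to 2189 normalised reads in labelled dormant cells (median 673) and from 0 to 2519 in proliferating cells (median 803), but from 0 to 3.13 in the low-label cells, which is at most 1 read. Timp2 was present in all 57 cells, at 442 to 6001 (median 2015), 75.1 to 5238 (median 1544) and 1.33 to 919 (median 557) in these sets. Timp3 was above 0 in 3, 2 and 0 cells and was not tested.

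Receptors were present in all 3 sets. Cd44, the hyaluronan and osteopontin receptor, had medians of 1112 in labelled dormant, 1022 in proliferating and 1073 in low-label cells. Plaur, the urokinase receptor, had medians of 436, 541 and 697. Sdc4, syndecan 4, had medians of 34.1, 48.5 and 107, while Sdc1, syndecan 1, had 57.4 and 43.9 in the labelled sets and was at 0 in all low-label cells. Among labelled cells, leukocyte-rich cells had a Plaur median of 833 (18 cells) and the others 383 (33 cells), and Cd44 medians were 1616 and 936. The part of leukocyte transcripts in these levels was not tested.

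The first comparison set dormant against proliferating means with every mouse included. Of the 39 members tested 29 had a lower mean in dormant cells, and none passed the test. limma called 0 of 11843 genes at an adjusted p of 0.05 (0%) and 0 members, with a smallest adjusted p of 0.437. edgeR on recovered reads called 0 genes. DESeq2 called 302 genes, of which 294 were higher, and none of these was a member. At an unadjusted p under 0.05 limma gave 389 genes higher (3.28%) and 737 lower (6.22%) in dormant cells, and among the members 1 higher (Plaur) and 1 lower (Adam9), a share near that of all genes. Without mouse 360, 326 genes were lower at that level. The members' median difference was −0.73, beside −0.35 over all genes.

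Adam9, a membrane-anchored metalloproteinase and sheddase, had the smallest p of the members. Values above 0 were found in 15 of 22 labelled dormant cells (0 to 1556 normalised reads, median 216), 25 of 29 proliferating cells (0 to 1734, median 303) and 3 of 6 low-label cells. Mouse means averaged 4.01 ± 2.08 (SD, n = 6) for dormant and 7.96 ± 2.16 (SD, n = 6) for proliferating cells and differed by −3.95 (SE 1.21, limma p 0.0032, adjusted p 0.437). With labelled dormant cells only it was −2.86 (SE 1.26, adjusted p 1.00), and within the mice with both states −2.96 (SE 1.25, adjusted p 0.536). Over all alternatives it ranged from −5.07 to −1.17 in the comparison of all mice, where edgeR gave the value nearest 0, and did not pass the adjusted threshold in any. Labelled dormant cells were lower in mice 369 and 452, by mouse means of 3.36 against 4.59 and 3.02 against 9.28, and not in mouse 1185, with 6.80 against 6.26.

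Plaur, Adam17 and Thbs1 had positive differences. For Plaur, the dormant means averaged 8.97 ± 0.45 (SD, n = 6) and the proliferating means 6.49 ± 3.53 (SD, n = 6), which differ by 2.48 (SE 1.18, limma p 0.0470, adjusted p 0.519). The lowest proliferating mean was 0 in mouse 288, which gave 1 cell, and without that mouse the difference was 1.18 (SE 0.81). With the mouse as a block by estimated correlation it was 2.33 (SE 1.15, unadjusted limma p 0.0530). Within the mice with both states it was 0.32 (SE 0.74). Adam17 differed by 2.32 (SE 1.30, adjusted p 0.602) over all mice, where mice 268 and 288, with 3 proliferating cells in all, were at 0, and by 0.12 (SE 1.30) within mice. Thbs1 differed by 2.06 (SE 1.22, adjusted p 0.625) over all mice, by 0.42 (SE 1.16) within mice and by 1.11 (SE 1.20) with labelled dormant cells only. None of these passed the adjusted threshold.

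Of the 29 members with a negative difference, 26 were less negative or positive when the low-label cells were left out, and 3 (Cd44, Plau and Plod3) were more negative. These 29 were taken because they were negative in the first fit, and the same share over all genes was not counted. The median difference over all genes also rose, from −0.35 to 0.09, so the shift was not particular to the members. Sparc went from −2.95 (SE 1.63) to 0.91 (SE 0.90), Fn1 from −2.80 (SE 1.56) to −0.01 (SE 1.43), Lamb1 from −2.29 (SE 1.33) to −0.12 (SE 1.17) and Col18a1 from −2.31 (SE 1.35) to −0.01 (SE 1.19). Col4a2 went from −1.96 (SE 1.28) to 0.08 (SE 1.28), Timp1 from −1.75 (SE 1.65) to 1.90 (SE 1.36) and Plod2 from −2.36 (SE 1.33) to −0.60 (SE 1.48). Mmp9, positive at 1.49 (SE 1.42), became −0.34 (SE 0.59). Bgn stayed at −1.81 (SE 1.62) from −2.24 (SE 1.34), and Mmp3 at −1.07 (SE 1.90) from −2.52 (SE 1.65). Cd44 was −0.73 (SE 0.72) and −0.79 (SE 0.77), and Mmp14 0.31 (SE 1.01) and 0.78 (SE 1.11). All dormant cells of mice 244 and 360 were low-label, and leaving them out also left those mice without a dormant mean. No value in either set passed the adjusted threshold by limma.

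**Figure D3:**
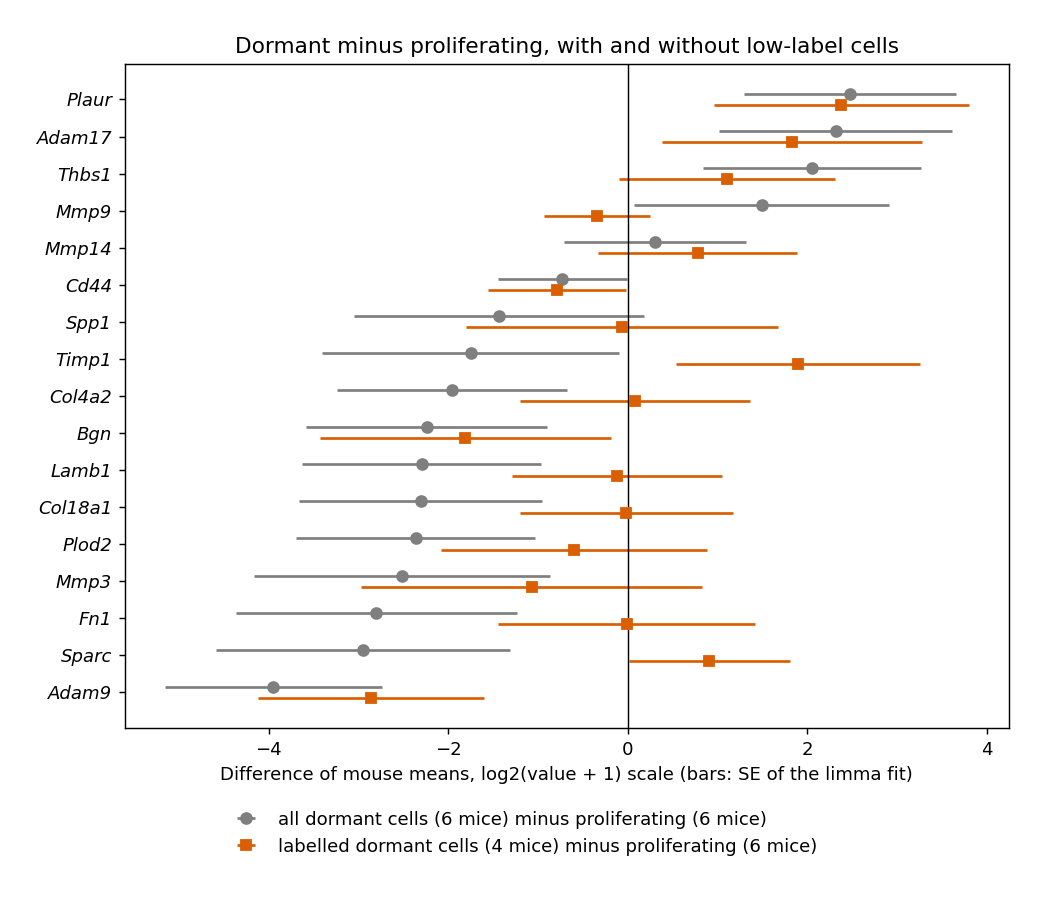
Difference of mouse means (dormant minus proliferating, log2(value + 1) scale) with the standard error of the limma fit for 17 members, with all dormant cells (grey circles) and with labelled dormant cells only (orange squares). Sparc, Timp1 and Col4a2 move from below to above 0 without the low-label cells, Fn1, Lamb1 and Col18a1 move to about 0, and Adam9 stays below −2.

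Labelled dormant against proliferating cells was the second comparison, with 4 and 6 mouse means and no block for the mouse. Mice 369, 452 and 1185 gave a mean to both sides, and the fit took these means as independent. limma called 0 of 11595 genes (0%), with all adjusted p-values at 1.00, and edgeR called 0. The genes with an unadjusted p under 0.05 numbered 168 higher (1.45%) and 59 lower (0.509%), and of the 39 members tested 0 were higher and 1, Adam9, was lower. The members split into 20 positive and 19 negative, with a median of 0.07 beside 0.09 over all genes. In the 3 mice with labelled cells of both states, the mean of 3 members (Col5a1, Tgfbi and Timp2) was higher in labelled dormant cells in every mouse and that of 4 members (Cd44, Mmp13, Plau and Tnc) was lower in every mouse. Over all genes of the table these shares were 7.34% and 11.1%. For Timp2 the mouse means differed by 0.07, 0.01 and 0.14, in mice 369, 452 and 1185. The other 34 members went both ways or were equal in a mouse.

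Within the 4 mice with both states, the third comparison, limma with the mouse as a block called 0 of 11565 genes (0%), with a smallest adjusted p of 0.536. The genes with an unadjusted p under 0.05 numbered 119 higher (1.03%) and 950 lower (8.21%). Among the members 0 were higher and 6 lower. These were Adam9, Sparc, Bgn, Fn1, Timp1 and Plod2. Sparc differed by −2.73 (SE 1.17), Fn1 by −3.56 (SE 1.58), Timp1 by −2.87 (SE 1.27), Plod2 by −2.91 (SE 1.31) and Bgn by −3.67 (SE 1.58), each with a limma adjusted p between 0.536 and 0.537. Both dormant cells of mouse 360 were low-label. Without that mouse Sparc was −0.87, Fn1 −0.92, Timp1 −0.91, Plod2 −2.09 and Bgn −1.23. Without the low-label cells, which also drops that mouse, they were −0.21, −0.93, 0.0038, −1.60 and −1.18. The number of members lower at an unadjusted p under 0.05 was 1 with median-ratio scaling and 1 with a pseudocount of 10. It was also 1 when genes above 0 in at least 1 cell were tested. Over all genes, 583, 789 and 869 were lower at that level in these settings, in place of 950. The median member difference was −1.20, beside −0.72 over all genes. Without low-label cells, which left 3 mice, it was −0.14 beside −0.12. In that fit 2 of 38 members and 234 of 11174 genes were lower at an unadjusted p under 0.05. The comparisons share proliferating cells, so their values are not separate evidence.

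Matrix genes outside the list were looked at in the same fits, from a list of 109 others of which 68 were in the table and 63 were tested. None was called. At an unadjusted p under 0.05, 1 was higher and 3 were lower over all mice, 0 and 6 within mice, and 1 and 0 with labelled dormant cells. The shares over all genes were 3.28% higher and 6.22% lower, 1.03% and 8.21%, and 1.45% and 0.509%. The medians were −0.42, −0.82 and 0.20, beside −0.35, −0.72 and 0.09 over all genes. Serpinh1, the collagen chaperone, and Sdc2, syndecan 2, were lower at that level both over all mice, by −2.94 (SE 1.36) and −3.74 (SE 1.39), and within mice, by −3.22 (SE 1.27) and −3.21 (SE 1.28). With labelled dormant cells only the values were −0.23 (SE 1.07) and −0.30 (SE 0.76). The gene higher at that level with labelled dormant cells only was Efemp1, by 3.78 (SE 1.59, unadjusted limma p 0.029). It did not pass the adjusted threshold, and differed by 0.78 (SE 1.73) over all mice and 0.71 (SE 1.28) within mice. Its medians were 966 in labelled dormant, 270 in proliferating and 0.67 in low-label cells. Mmp8, the neutrophil collagenase, was higher at that level over all mice by 3.25 (SE 1.51) and differed by 0.41 (SE 0.64) with labelled dormant cells only. Its median was 514 normalised reads in low-label cells and 0 in both labelled sets. Ctsl, a lysosomal protease gene, ran the other way between these sets, with medians of 522 in low-label, 19516 in labelled dormant and 7982 in proliferating cells.

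Correlations between members were mostly positive from cell to cell, as were those between all genes. Over 51 labelled cells the Spearman correlation was above 0 for 638 of 666 pairs of the 37 members, with a median of 0.345, and of 0.367 once mouse and state means were removed. Over the pairs of all 10232 genes above 0 in at least 25% of those cells, 74.7% were above 0, with a median of 0.12, against 95.8% of the member pairs. The closest pairs were Col5a1 with Adam10 (0.776), Fn1 with Col18a1 (0.750), Sparc with Mmp2 (0.736) and Sparc with Timp2 (0.736). The lowest was Spp1 with Sdc4 (−0.241). The number of genes above 0 in a cell varied with the members too, with correlations from −0.04 (Spp1) to 0.811 (Hspg2) and a median of 0.356. Hspg2, Col5a1 (0.762) and Adam10 (0.720) followed it most, while the low members Plau (0.140) and Mmp13 (0.259) followed it less. The part of the number of genes above 0 in the pair correlations was not tested.

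**Figure D4:**
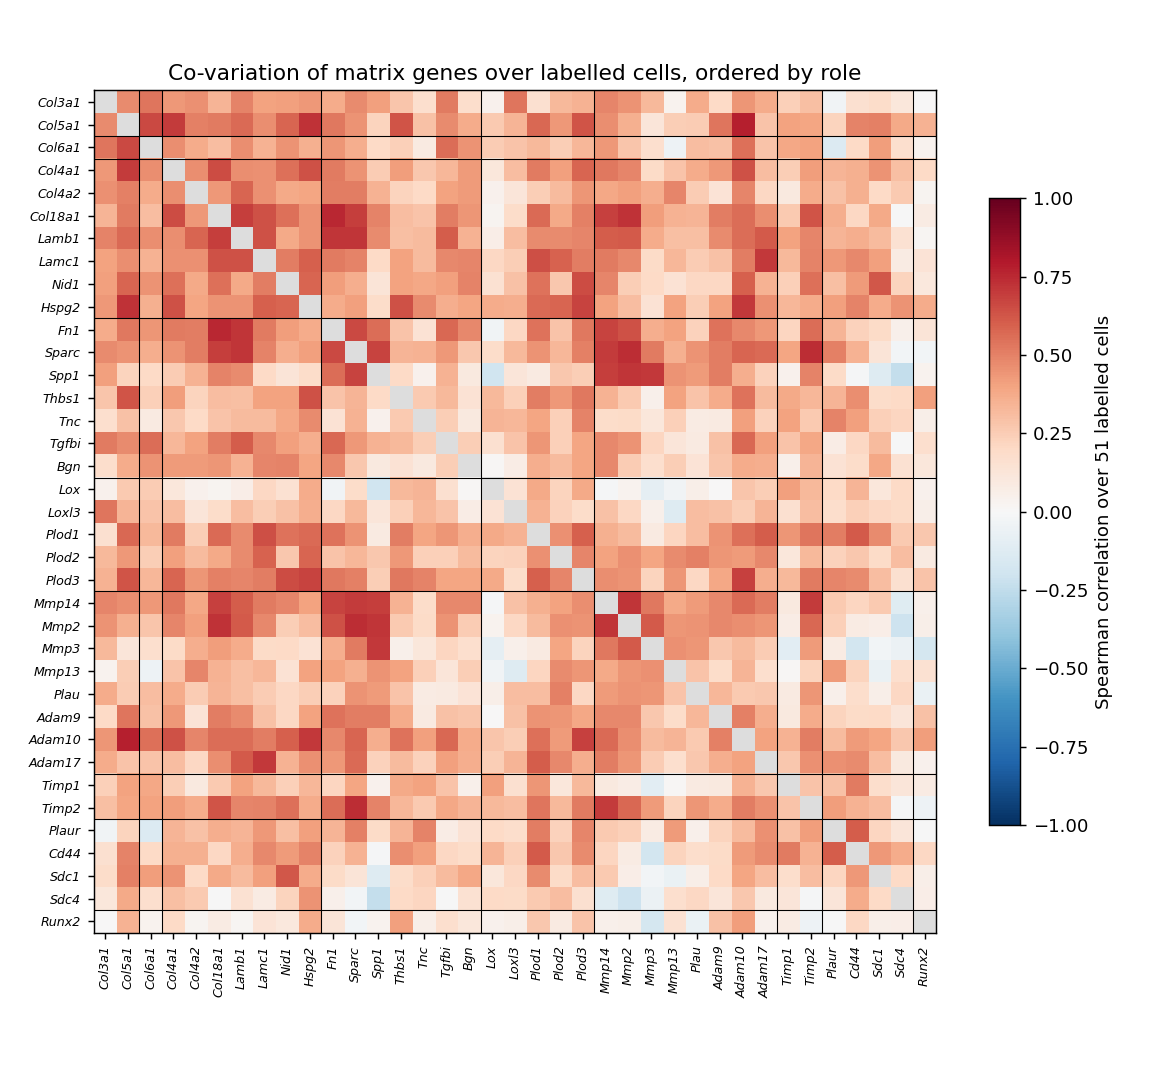
Spearman correlation over 51 labelled cells between the 37 members above 0 in at least 25% of them, ordered by role, with black lines between roles. Most pairs are red (above 0), the highest value is Col5a1 with Adam10 (0.776), and the rows of Lox, Sdc4 and Runx2 are pale.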

How the data were processed

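Per the labels' protocols, full-length RNA-seq libraries of single RM1 cells carried spike-in RNA. STAR, RSEM, GRCm38 and mm10 are named in the submitters' processing notes, without versions. Per the series text, the authors normalised with BASiCS, and the deposited values are a signal, normalised reads per gene and cell. All gene values (100%) were whole multiples of 1 step per cell within 0.01 reads, so whole reads were recovered. Spike-ins (118) were left out. No pair of cells correlated above 0.891. Depth and intervals cover counting error only.

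Each sample is 1 cell, so the mouse was the replicate. Values were averaged as log2(value + 1) per mouse and state. limma 3.58.1 (trend, robust) tested genes above 0 in at least 6 cells, with Benjamini-Hochberg adjustment over all of them at 0.05. Such differences understate changes of low genes. Pairing by mouse comes from the labels. The paired means' deviations correlated at 0.337, 0.164, −0.0056 and −0.013 in mice 369, 452, 360 and 1185. As alternatives, the recovered reads were summed over the cells of each mouse and state and tested with edgeR 4.0.16 and DESeq2 1.42.0. Other alternatives changed the pseudocount, filter, averaging, scaling, block, cells and mice. Means of mice 244 and 288 rest on 1 cell.

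The members, lists, cutoffs and tests were chosen with earlier results of these data known. Differences are printed for the 12 members with the smallest limma p over all mice and for Fn1, Sparc, Spp1, Timp1, Mmp9, Mmp14 and Cd44, 17 genes in all. Among the other matrix genes, those printed were picked after their values were seen. Library batches held cells of a single state, per the labels' protocols, and therefore state and batch cannot be told apart. Positions come from GENCODE on GRCm38, and 12852 of 12885 gene IDs were given a symbol. Scripts were tested on simulated data. Software was R 4.3.3 and Python 3.11.15 (pandas 2.3.3, matplotlib 3.10.9).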

Additional observations from a re-analysis of the deposited data

Results flagged for a closer look

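A mouse mean far from the others was found in 5 of 51 groups of mouse means (17 members in dormant, labelled dormant and proliferating cells), where chance gives about 1 in 20. These groups share cells, the members co-vary and some means lie at 0. The groups are therefore not independent, and the 1 in 20 is only a rough guide. All values are means of log2(normalised reads + 1) over the cells of a mouse. Bgn averaged 11.02 in the 3 proliferating cells of mouse 360, where the other 5 mice lay between 0 and 3.20. Mmp9 averaged 11.58 in mouse 244, which gave 1 dormant cell, low in the label, where the other 5 mice reached at most 2.23. In the 4 labelled dormant cells of mouse 369, Mmp3 averaged 0 (7.13 to 8.48 in the other 3 mice), Mmp14 averaged 6.03 (8.74 to 9.14) and Mmp9 averaged 1.67 (0 to 0.26).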

How the results depend on the processing

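The number of genes called was 0 under every limma and edgeR setting of the 3 comparisons, and no member was called in any setting. DESeq2 called 302 genes over all mice, none of them a member. Its cause was not tested. The median member difference over all mice (−0.73) turned to 0.065 without low-label cells and 0.43 without leukocyte-rich cells, which include all 6 low-label cells. The medians over all genes moved in the same direction, from −0.35 to 0.090 and 0.54. The median member difference ranged from −1.19 to −0.22 with each mouse left out, nearest 0 without mouse 360. With mouse as a replicate block it was −0.76. Within mice it ranged from −1.70 to −0.51 with each mouse left out, and dropping the block kept it at −1.20. Dropping the block gave 3 members lower at an unadjusted p under 0.05 in place of 6, and 876 of all genes in place of 950. With each mouse left out, the members lower at that level numbered 2 to 11, the highest without mouse 1185. There 1703 of 10972 genes were lower too. Over all mice the members lower ranged from 1 to 5, again the highest without 1185, where 843 of 11439 genes were lower. With labelled dormant cells the median member difference (0.065) was −0.10 at an eCFP cutoff of 10. It ranged from −0.36 to 0.52 with each mouse left out, below 0 without mouse 268 (−0.05), 1184 (−0.36) or 1185 (−0.14). Rescaling cells by median ratios moved the median of all genes over all mice from −0.35 to −0.16 and that of the members to −0.62.

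Single members changed sign in 28 of 418 combinations of gene and setting, none of them past the threshold. Without low-label cells these were Sparc (0.91), Col4a2 (0.080), Timp1 (1.90) and Mmp9 (−0.34) over all mice and Timp1 (0.0038) within mice. Without leukocyte-rich cells they were Fn1 (0.26), Sparc (2.17), Lamb1 (0.82), Spp1 (0.69), Timp1 (3.17) and Cd44 (0.43). edgeR and DESeq2 gave Sparc 0.013 and 0.016, Lamb1 0.12 and 0.072, Col18a1 0.31 and 0.24, and Cd44 0.15 and 0.095. With log2 of the mean, Mmp14 was −0.074 over all mice and Spp1 0.28 within mice, where median-ratio scaling gave Spp1 0.37. With each mouse left out, Mmp9 ranged from −0.35 (without 244) to 2.15 and Mmp14 from −0.24 (without 268) to 0.55 over all mice, and Spp1 from −0.46 to 0.17 within mice. In labelled cells without leukocyte-rich cells, an alternative chosen after seeing the data, Bgn was 0.18 and Timp1 0.15 within mice. The cause of these changes was not tested. Depth was at least 945351 reads per cell.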
